A study of Mus musculus with 20 samples.

Results

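A set of 50 genes of B and T lymphocytes, out of 21154 genes named on the array, was followed in 5 tissues of mice on 4 diets. They were chosen as markers of the 2 lineages and of their neighbours: 12 B cell genes, 4 plasma cell genes, 10 genes of the T cell receptor and its co-receptors, 10 T cell surface genes, 6 T cell transcription regulators, 6 cytotoxic and natural killer (NK) genes, and 2 ligands of the endothelium that lymphocytes roll on. All 50 were on the array, and where a gene had several probes (18 members) the brightest was used. A level is the log2 signal minus the 75th percentile of its array, so 0 is the 75th percentile itself. Levels of single genes were compared between arrays, never between genes. Medians and summed levels describe whole lists of genes, and a summed level is weighted toward the brightest genes of its list.

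Male C57BL/6J mice, aged 5 weeks at the start, ate 1 of 4 diets for 13 weeks. The control diet (CD) supplied 10% of its energy as fat and the high fat diet (HFD) 60%. HFD+PP was HFD to which porphyran, a sulphated polysaccharide of the red alga nori, had been added at 2% (w/w), and HFD+Ex was HFD with nori extract at 2% (w/w). Each tissue (ileum, colon, liver, brown fat and the white fat of the mesentery) was pooled over the 7 mice of a diet, and each of the 20 pools was hybridised to 1 array. A diet therefore has 1 array per tissue, no difference between diets has a replicate check, and no test of diet is given. A member was counted as higher or lower on a diet when its log2 difference reached 1, which is 2-fold, and 1 or both of the arrays showed it well above background. Where only 1 of the arrays was above background, the dim side was set at its floor and the difference is written "at least". Repeated spots of 1 probe gave a technical SD of 0.093 log2 for such a difference, which leaves out the spread between mice. In pooled tissue, fewer cells of a type and less RNA per cell cannot be told apart.

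B cells recognise antigen through a surface immunoglobulin coupled to the Cd79a and Cd79b proteins, and after activation they become plasma cells that secrete antibody. T cells recognise peptides through a receptor coupled to the CD3 chains, with CD4 or CD8 as co-receptor and the kinases Lck and Zap70 passing the signal on. Mesenteric fat surrounds the mesenteric lymph nodes, the wall of the small intestine holds Peyer's patches and many scattered T cells, and brown fat and liver hold few organised lymphoid structures.

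The arrays had 50.7% to 67.9% of their spots well above background, and none of the spots used was saturated. Tissue labels were checked against defining genes. The 6 liver genes had a median level of 9.84 to 9.95 in liver, the 6 brown fat genes 9.50 to 9.77 in brown fat, the 5 ileum genes 5.83 to 6.21 in ileum and the 5 colon genes 5.28 to 5.84 in colon. The 6 white fat genes stood at 6.52 to 6.99 in mesenteric fat and at 7.00 to 7.33 in brown fat, so they did not tell the 2 fat depots apart. The arrays lay on 4 slides: liver with mesenteric fat CD and HFD, mesenteric fat HFD+PP and HFD+Ex with the first 3 diets of brown fat, brown fat HFD+Ex with ileum, and colon alone.

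Promoter sequence is shown for 4 members from the B cell, T cell receptor and regulator groups. They were chosen because the bases before at least 1 of their starts match the Ets motif, which many lymphoid genes carry. RefSeq (GRCm38.p6) listed promoters for 37 of the 50 members, and the 250 bases before each of their 47 starts were searched on both strands. The Ets motif CAGGAAGT was found in 8 of the 37 members (Cd79a, Cd3e, Cd247, Lck, Il7r, Lef1, Tbx21 and Prf1) and in 3.13% of all 27025 genes with a promoter. The E box CAGGTG was found in 17 of the 37 members and in 19.4% of all genes. The Runx motif TGTGGTTT was found in 1 member, Gzma, and in 1.78% of all genes, and the octamer ATGCAAAT in 0 members and 1.81% of all genes. These are matches of letters, not binding sites. The stretches below are 120 bases long, written 5′ to 3′ on the gene's strand, with Ets and E box matches in capitals. They are for Cd79a the last bases before the start at chr7:24897377-24897496 (plus strand) and for Cd3e chr9:45009612-45009731 (minus strand). For Lck they are chr4:129573642-129573761 before its upstream start and chr4:129558424-129558543 before its downstream start (minus strand). The Lef1 stretch is chr3:131156174-131156293 (plus strand), before a start inside the annotated gene, which spans 131110297 to 131224357. The Cd3e stretch partly overlaps the annotated gene, which spans 44998735 to 45009663.
Cd79a: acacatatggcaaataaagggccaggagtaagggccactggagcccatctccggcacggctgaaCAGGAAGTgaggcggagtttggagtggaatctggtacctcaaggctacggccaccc
Cd3e: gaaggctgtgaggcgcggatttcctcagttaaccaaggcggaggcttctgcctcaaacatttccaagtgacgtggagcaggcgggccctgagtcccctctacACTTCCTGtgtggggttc
Lck, upstream start: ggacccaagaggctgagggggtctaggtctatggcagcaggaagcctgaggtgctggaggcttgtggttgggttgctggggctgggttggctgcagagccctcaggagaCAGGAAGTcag
Lck, downstream start: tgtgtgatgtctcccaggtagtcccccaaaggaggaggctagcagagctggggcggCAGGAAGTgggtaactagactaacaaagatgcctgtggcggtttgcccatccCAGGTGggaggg
Lef1: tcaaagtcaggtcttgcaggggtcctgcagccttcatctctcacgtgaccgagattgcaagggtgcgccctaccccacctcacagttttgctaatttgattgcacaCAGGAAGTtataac

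**Figure D1:**
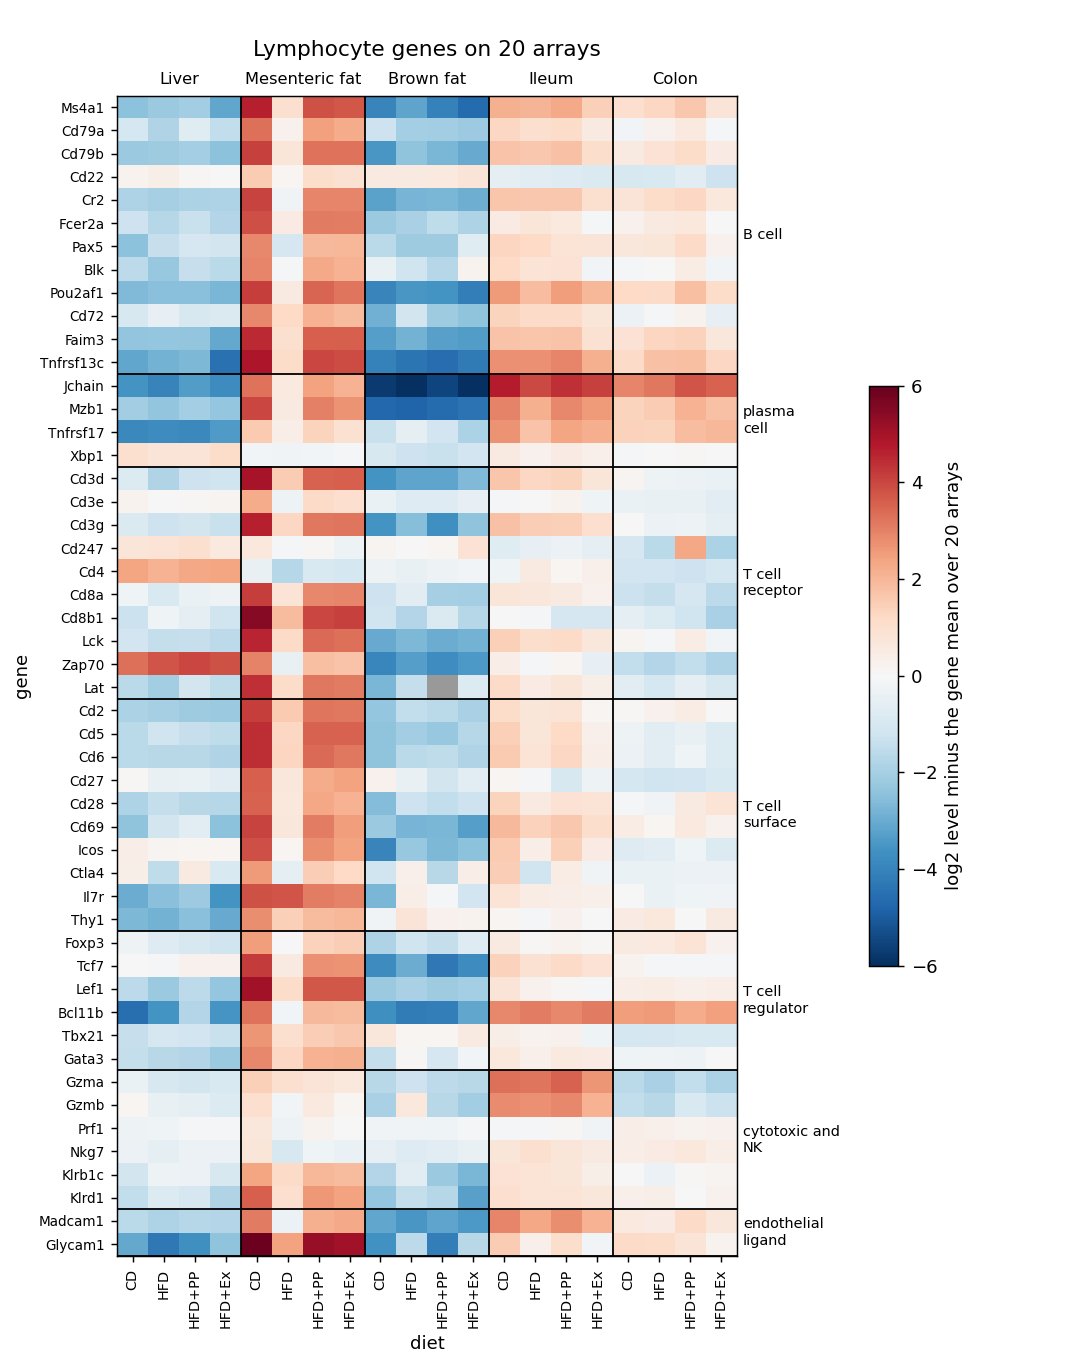
Level of each of the 50 lymphocyte genes (rows, grouped by role) on the 20 arrays (columns, 4 diets in each of 5 tissues), as the log2 level minus that gene's mean over its arrays; red is above the mean and blue below, and the grey cell (Lat, brown fat HFD+PP) is an outlier spot that was left out. The mesenteric fat HFD column is paler than the other 3 mesenteric fat columns for nearly every gene.

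The diet question was first asked in mesenteric fat, where more members reached 2-fold than in any of the other 4 tissues. On HFD, 46 of the 50 members were lower than on CD by at least 2-fold and 0 were higher. The median difference was −3.12 log2, against 0.14 over all genes measured, of which 9.49% were higher and 8.23% lower. The median level of the 50 genes was 2.37 on CD, −0.58 on HFD, 1.35 on HFD+PP and 1.31 on HFD+Ex. Against HFD, 35 members were higher on HFD+PP (median 2.02 log2) and 35 on HFD+Ex (median 1.93 log2), with 0 lower in each comparison. Over all genes measured, 4.51% were higher and 4.41% lower on HFD+PP, and 3.59% were higher and 3.91% lower on HFD+Ex. These 3 comparisons share the HFD array, so their opposite signs are not independent of each other.

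The CD and HFD arrays of mesenteric fat lay on 1 slide. The HFD+PP and HFD+Ex arrays lay on another, so for both supplements slide and diet cannot be told apart. With scaling to bright probes, the split over all genes for HFD against CD turned from 1552 higher and 1346 lower to 1168 higher and 1560 lower, while the members stayed at 0 higher and 46 lower.

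The 12 B cell genes were all lower on HFD, with a median difference of −3.48 log2. Cr2, which encodes the complement receptor CD21, stood at 4.22 on CD, −0.03 on HFD, 3.11 on HFD+PP and 3.12 on HFD+Ex. The HFD array was the lowest of the 4 and was 19.0-fold below CD; HFD+PP and HFD+Ex lay 8.83-fold and 8.91-fold above it. Ms4a1, which encodes CD20, stood at 4.77, 1.08, 3.92 and 3.86 on CD, HFD, HFD+PP and HFD+Ex, a 13.0-fold lower level on HFD than on CD. Tnfrsf13c, the receptor for the B cell survival factor BAFF, stood at 2.88, −0.84, 2.04 and 1.96 in the same order, which put HFD 13.2-fold below CD. In each of these 3 genes the supplemented diets lay between HFD and CD.

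Cd79a, a chain of the B cell receptor complex, stood at 0.27, −2.79, −0.60 and −0.80, and its partner Cd79b at 5.88, 2.47, 5.03 and 5.01. Both were at their lowest on HFD, by 8.32-fold and 10.6-fold from CD. Pou2af1, a coactivator of octamer-dependent transcription in B cells, stood at 3.88, 0.26, 3.22 and 2.94 and was 7.80-fold higher on HFD+PP than on HFD. Pax5, the regulator that keeps B cell identity, was not well above background on HFD. Its level on CD was at least 12.1-fold above the floor of the HFD array, and on HFD+PP and HFD+Ex at least 6.30-fold and 6.53-fold.
Fcer2a (CD23), Faim3 (the IgM receptor, now named Fcmr) and Blk (a B cell kinase) were lower on HFD by 3.37, 3.55 and 3.02 log2. The smallest B cell differences were those of Cd72 (−1.69 log2) and Cd22 (−1.42 log2), both inhibitory receptors; these 2 were also the only B cell genes that did not reach 2-fold on HFD+PP or HFD+Ex.

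Of the 4 plasma cell genes, 3 were lower on HFD and 2 were higher on each supplemented diet than on HFD. Mzb1, an endoplasmic reticulum chaperone of marginal zone B cells and plasma cells, stood at 3.09 on CD, −0.39 on HFD, 2.08 on HFD+PP and 1.74 on HFD+Ex, which put HFD 11.2-fold below CD. Jchain, which links antibody molecules into polymers, stood at 5.86, 3.19, 4.99 and 4.67, so that HFD lay 6.37-fold below CD. Tnfrsf17, the survival receptor BCMA of plasma cells, stood at −1.74, −2.89, −1.96 and −2.41; it was lower on HFD by 1.15 log2 and did not reach 2-fold on either supplement. Xbp1, a regulator of secretory capacity that many other cells also use, lay between 5.87 and 6.03 on all 4 arrays.

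Of the 10 T cell receptor genes, 9 were lower on HFD (median −3.37 log2), and 8 were higher on HFD+PP and 8 on HFD+Ex than on HFD. Cd3e, a chain of the CD3 complex, stood at 3.78 on CD, 1.26 on HFD, 2.69 on HFD+PP and 2.56 on HFD+Ex, with HFD 5.74-fold below CD. Cd3g and Cd3d, 2 other CD3 chains, were lower on HFD by 3.43 and 3.41 log2. Cd8a and Cd8b1, the chains of the CD8 co-receptor, stood at 0.11, −3.23, −1.13 and −1.12, and at 1.68, −1.90, 0.22 and 0.29. In both the HFD array was the lowest, below CD by 3.34 and 3.58 log2.

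Lck, the kinase bound to CD4 and CD8, stood at 5.15 on CD, 1.72 on HFD and 3.90 on HFD+Ex, and lay 4.85-fold higher on HFD+PP than on HFD. HFD was 10.8-fold below CD. Zap70 and the adaptor Lat were lower on HFD by 3.42 and 3.28 log2. Cd4 stood at 2.88, 1.62, 2.42 and 2.27, which put HFD 2.40-fold below CD, and a second, dimmer Cd4 probe stood at −2.68, −4.80, −3.35 and −3.49. Cd247, the zeta chain of the receptor, was at −3.29, −4.05, −3.86 and −4.25 and did not reach 2-fold in any of the 3 comparisons; its other probe stood at −1.28, −3.02, −2.16 and −2.18.

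Among the 10 T cell surface genes, 9 were lower on HFD (median −3.00 log2) and 8 were higher on each supplement than on HFD. Icos, a co-stimulatory receptor of activated and follicular helper T cells, stood at 1.81, −1.92, 0.73 and 0.36 on CD, HFD, HFD+PP and HFD+Ex, so that HFD lay 13.3-fold below CD. Cd69, an early activation and tissue retention marker, stood at 0.22, −3.16, −0.76 and −1.31. Cd5 stood at 3.24, 0.07, 2.35 and 2.37. In all 3 of these genes HFD was the lowest array. Ctla4, an inhibitory receptor of activated and regulatory T cells, was not well above background on HFD and was at least 8.54-fold higher on CD. Cd2, Cd6, Cd27 and Cd28 were lower on HFD by 2.58, 3.14, 2.91 and 2.89 log2.

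Il7r and Thy1 departed from the other surface genes. Il7r, the receptor for the T cell survival factor IL-7, stood at 2.16, 2.11, 1.38 and 1.29; its lowest levels were on the supplemented diets and not on HFD, and none of its differences reached 2-fold. Thy1, which fibroblasts and nerves also carry, stood at 5.14, 3.78, 4.26 and 4.32 and was lower on HFD by 1.36 log2.

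The 6 T cell regulators were all lower on HFD (median −2.98 log2), and 4 of them were higher on each supplement. Lef1, a transcription factor of naive T cells, stood at 3.65 on CD, −0.28 on HFD, 2.36 on HFD+PP and 2.34 on HFD+Ex, with HFD 15.3-fold below CD. Its relative Tcf7 stood at 1.75, −1.92, 0.29 and 0.25, with HFD 12.7-fold below CD. Bcl11b, which sets T cell identity, was lower on HFD by 3.39 log2. Foxp3, the regulator of regulatory T cells, stood at −1.39, −3.95, −2.52 and −2.45, with HFD 5.91-fold below CD. Tbx21 and Gata3, which direct helper T cell subsets and act in innate lymphocytes as well, were lower on HFD by 1.67 and 1.62 log2, and were the 2 regulators that did not reach 2-fold on either supplement.

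The 6 cytotoxic and NK genes had the smallest differences, with a median of −1.23 log2 on HFD, 0.72 on HFD+PP and 0.45 on HFD+Ex. Klrd1, the CD94 receptor chain of NK cells, stood at 1.16, −1.42, 0.16 and 0.00; it was 6.02-fold lower on HFD and, with the brightest probes, was the only one of the 6 that reached 2-fold on the supplements. Gzma, a granule protease, stood at 1.70, 1.24, 1.06 and 0.90, with HFD+Ex and not HFD the lowest. Gzmb stood at −2.26, −3.46, −2.71 and −3.18 and was lower on HFD by 1.20 log2. Nkg7, Klrb1c and Prf1, the last encoding perforin, were lower on HFD by 1.70, 1.27 and 1.02 log2. Both probes of Nkg7 had the same order over the diets, but their differences were not of the same size. The one used stood at 3.39, 1.69, 2.38 and 2.26. The dimmer one stood at 2.14, −0.47, 0.87 and 0.84, which is past 2-fold on both supplements.

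The 2 endothelial ligands had a median difference of −3.46 log2 on HFD, near that of the B cell genes. Madcam1, the addressin of mucosal lymphoid vessels, stood at 2.97, −0.52, 2.00 and 2.12, with HFD 11.2-fold below CD. Glycam1, a glycoprotein of the high endothelial venules of lymph nodes, stood at 3.16, −0.28, 2.52 and 2.33, with HFD 10.8-fold below CD. Neither encodes a lymphocyte protein.

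**Figure D2:**
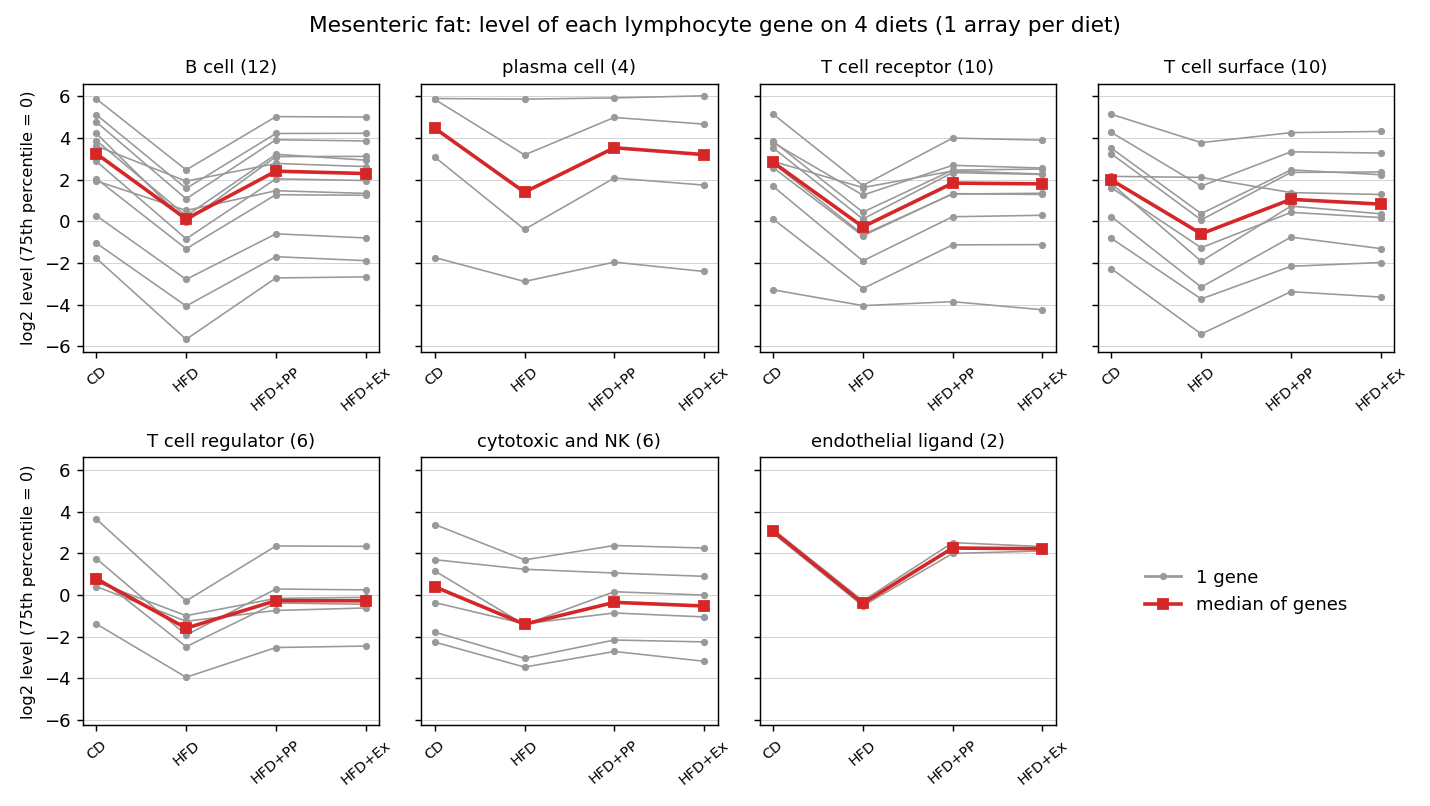
Log2 level (vertical axis, 0 is the 75th percentile of the array) of each lymphocyte gene in mesenteric fat on 4 diets, in 1 panel per role; grey lines are genes, the red line is the median of the genes of that role, and each point is 1 array of 7 pooled mice. The red median was lowest on HFD in all 7 panels, and the median of the endothelial ligands was 3.07 on CD and −0.40 on HFD.

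The supplemented diets were close to each other and below CD. The difference of HFD+Ex from HFD+PP, 2 arrays of the same slide, had a median of −0.09 log2 over the 50 members and ran from −0.55 to 0.18, and 0 members reached 2-fold. Against CD, which lay on the other slide, 49 members were lower on HFD+PP (median −0.94 log2), 21 of them by at least 2-fold, and 49 on HFD+Ex (median −1.01 log2), 25 of them by at least 2-fold. The levels of 47 members on HFD+PP and of 46 on HFD+Ex lay between those on HFD and CD. All of these counts use the same 4 arrays. They were not taken over all genes, so they do not set the members apart from other genes.

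Other genes of the same pathways gave counts in the same directions, without being independent of the members. Of 15 other genes of B cell receptor signalling, 9 were lower on HFD and 4 were higher on each supplement than on HFD. Among them the transcription factor gene Spib differed by −3.66 log2 and Fcrla by −3.43 on HFD. Syk, Lyn, Blnk, Ebf1, Fcgr2b and Dapp1 did not reach 2-fold. Of 14 measured genes of T cell receptor signalling, 12 were lower on HFD (median −3.18 log2) and 10 were higher on each supplement. Themis was at least 17.7-fold lower, and Sh2d1a (the SAP adaptor) and Trat1 were 12.3-fold and 10.9-fold lower.

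Genes of lymphocyte homing and of the germinal centre also differed. Of 8 genes of naive lymphocyte homing, 6 were lower on HFD and 5 were higher on each supplement. Ccr7 and Cxcr5, which guide lymphocytes into lymph nodes and follicles, differed by −3.97 and −3.80 log2 on HFD. Of 5 gut homing genes, 5 were lower on HFD, 4 higher on HFD+PP and 2 higher on HFD+Ex, led by Ccr9, the receptor for a small intestinal chemokine, at 10.2-fold lower on HFD.
Of 8 germinal centre genes, 6 were lower on HFD and 1 higher, and 5 were higher on each supplement. Rgs13 and Il21, a germinal centre regulator and the cytokine of follicular helper T cells, were at least 17.4-fold and at least 11.8-fold lower on HFD. S1pr2 went the other way, 2.10-fold higher on HFD.

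The lists of plasma cell, regulatory T cell and innate lymphoid genes were mixed. Of 8 plasma cell programme genes, 3 were lower on HFD (Derl3 by 2.91, Pim2 by 2.06 and Irf4 by 1.89 log2) and 1 was higher, Sdc1, which epithelial cells also carry, at 1.59 log2. Of 8 regulatory T cell genes, 4 were lower on HFD, led by Tnfrsf4 and Tnfrsf18 at 7.66-fold and 5.92-fold. Of 10 genes of innate lymphoid and NK cells, 8 were lower on HFD, among them the chemokine gene Ccl5 at 6.41-fold and the NK cell regulator gene Eomes at 4.44-fold.

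Markers of other cells and organs moved on the same arrays. Of 9 genes of lymph node vessels and stroma, 6 were lower on HFD (median −1.71 log2) and 4 were higher on each supplement. Ltb, a lymphotoxin that lymphocytes make, was 10.4-fold lower on HFD, and the lymph node chemokine genes Ccl19 and Cxcl13 were 6.91-fold and 6.53-fold lower. The summed level of the 9 genes was 7.25, 5.92, 6.73 and 6.70 log2 on CD, HFD, HFD+PP and HFD+Ex, beside 9.11, 7.08, 8.31 and 8.26 for the 50 members, and all 9 were well above background on each of the 4 arrays. The part of lymph node tissue in the pools was not tested.

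Pancreas genes were also lowest on HFD. All 20 exocrine pancreas genes were lower on HFD (median −5.85 log2) and higher on HFD+PP (6.64) and HFD+Ex (4.87), with summed levels of 11.07, 5.87, 11.77 and 10.19 log2. All 20 were well above background on each array, HFD included. Their summed level was higher on HFD+PP than on CD, while that of the members was lower. The intestinal epithelium list did not follow the members: 15 of 15 were higher on HFD, 3 were lower on HFD+PP and 15 were lower on HFD+Ex, with summed levels of 3.45, 6.10, 5.80 and 3.29 log2. At least 13 of the 15 were well above background on every array. On HFD+PP and HFD+Ex, 1 array each, the summed level of the members was 8.31 and 8.26 log2, beside 5.80 and 3.29 for the epithelium list. The part of pancreas and intestine in the lymphocyte result was not tested.

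Of 12 macrophage genes, 8 were higher on HFD and 2 lower, and 7 were lower and 2 higher on each supplement, so this list ran opposite to the members. The 2 exceptions, Marco and Timd4, genes of resident macrophages, were 13.0-fold and 13.1-fold lower on HFD, as the lymphocyte genes were. Of 9 dendritic cell genes, 6 were lower on HFD, with Ccl22 at least 9.94-fold and Flt3 6.95-fold lower. The white fat genes had summed levels of 9.94, 9.62, 10.08 and 10.09 log2, and 1 of 6 was higher on HFD. Smooth muscle genes had a median difference of 0.77 log2 on HFD, with 0 of 7 past 2-fold. The parts of these cells in the result were not tested.

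**Figure D3:**
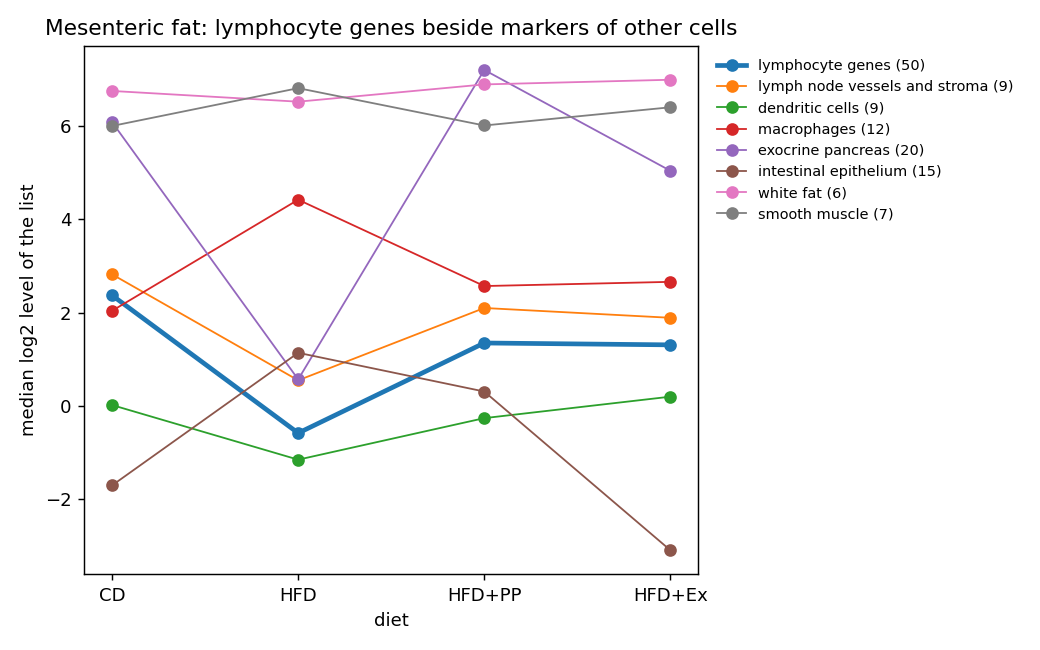
Median log2 level of the 50 lymphocyte genes and of 7 marker lists in mesenteric fat (vertical axis) on 4 diets (horizontal axis); the number of genes is in brackets and each point is 1 array. Lymphocyte, lymph node, dendritic cell and pancreas lists were lowest on HFD, the macrophage list was highest there at 4.42, and the epithelium list was lowest on HFD+Ex at −3.09.

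In brown fat fewer lymphocyte genes were above background than in the other 4 tissues. Of the few that differed between HFD and CD most were higher on HFD, several of them only as bounds. Of the 50 members, 22 were well above background on all 4 arrays and 12 on none. Of all spots, 50.7% were well above background on CD, 56.5% on HFD, 55.0% on HFD+PP and 63.9% on HFD+Ex. The part of array sensitivity in the member counts was not tested. On HFD against CD, 33 members were measured and 22 of them on both arrays. In all, 7 were higher and 1 was lower. Members not measured on both arrays were above background on HFD alone, so they could only count as higher. Among the 22, 3 were higher and 1 was lower, beside 588 higher and 274 lower of 13515 genes above background on both arrays. Over all genes measured 6.46% were higher and 2.96% lower. With the authors' own scaling the members split into 11 higher and 0 lower, and all genes into 1464 higher and 265 lower instead of 966 and 442. That scaling moved the median of all genes from −0.11 to 0.15 log2. With normexp background correction 2 members were higher and 0 lower on HFD, and 0 members reached 2-fold on either supplement.

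Il7r, which was not well above background on CD, stood at −1.27 on HFD, −1.80 on HFD+PP and −2.83 on HFD+Ex, and was at least 8.71-fold higher on HFD than on CD. Cd72 stood at −2.17, −0.37, −1.40 and −1.69 on CD, HFD, HFD+PP and HFD+Ex, with HFD the highest array and 3.48-fold above CD. Gzmb was above background on the HFD array alone, where it stood at −2.65 and was at least 3.58-fold above CD. Gata3 and Cd79b were higher on HFD by 1.46 and 1.06 log2, and Lat and Cd28 by at least 1.23 and 1.32. Jchain was the member that was lower, at −3.15 on CD and −4.18 on HFD. Il7r and Gata3 are expressed by innate lymphoid cells as well as by T cells. Of the 10 genes of innate lymphoid and NK cells, 3 were measured in brown fat, with 0 higher and 1 lower on HFD. The part of such cells was not tested.

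On HFD+PP against HFD, 3 members were lower in brown fat (Cd72 by 1.03, Gata3 by 1.07 and Gzmb by at least 1.96 log2) and 1 was higher (Jchain, 1.25 log2), beside 2.20% lower and 1.48% higher over all genes. On HFD+Ex, 6 were lower and 0 higher, beside 3.43% lower and 0.821% higher. These were Ms4a1 (1.46 log2), Cd72 (1.31), Il7r (1.55) and, as bounds, Gzmb (2.45), Klrd1 (1.25) and Tnfrsf17 (1.22). The HFD+Ex array of brown fat lay on another slide than the HFD array, so slide and diet cannot be told apart there. Macrophage genes moved on the same arrays: 11 of 12 were higher on HFD than on CD, 2 were lower on HFD+PP than on HFD and 9 on HFD+Ex, with summed levels of 4.76, 6.52, 5.91 and 5.34 log2. Of the 6 liver genes, 5 were higher and 1 lower on HFD than on CD, and of 7 measured lymph node genes 1 was higher and 1 lower. The part of any of these in the lymphocyte values was not tested.

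The ileum held the members at measurable levels, with 47 of 50 well above background on all 4 arrays, and few differed between diets. Per ileum array, 57.3% to 64.6% of all spots were well above background. On HFD, 0 members were higher than on CD and 3 were lower, beside 1.62% higher and 2.28% lower over all genes. Icos stood at −0.47 on CD, −1.65 on HFD, −0.59 on HFD+PP and −1.54 on HFD+Ex. It was 2.26-fold lower on HFD than on CD and 2.08-fold higher on HFD+PP than on HFD, and was the only member past 2-fold in that second comparison (1.96% higher and 0.939% lower over all genes). Glycam1 stood at −1.20, −2.41, −1.65 and −2.87 and was 2.32-fold lower on HFD. Ctla4, dim in ileum, was at least 3.66-fold lower on HFD. With other scaling the split over all genes for HFD against CD ran from 348 higher and 272 lower (quantile) to 205 higher and 485 lower (the authors' values), against 267 and 376 here, and the members ran from 3 to 4 lower with 0 higher.

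Plasma cell genes of the ileum had their highest median on CD (4.33) and their lowest on HFD (3.76), with 4.27 on HFD+PP and 3.99 on HFD+Ex, and none of the 4 reached 2-fold. Jchain stood at 7.31, 6.55, 6.99 and 6.68, and Mzb1 at 2.03, 1.18, 1.95 and 1.63. On HFD+Ex against HFD, 1 member, Blk, was lower (2.02-fold) and 0 were higher, beside 0.701% lower and 1.13% higher over all genes. The median level of the 12 B cell genes was 1.32, 1.19, 1.40 and 0.67, lowest on HFD+Ex. Ms4a1 stood at 2.25, 2.15, 2.41 and 1.54, and Cr2 at 1.84, 1.81, 1.82 and 1.16. Of the 9 lymph node genes, 1 was lower on HFD and 0 differed on either supplement; 4 of 6 white fat genes were lower on HFD and 5 of 6 were higher on HFD+PP. Their part in the ileum values was not tested.

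In colon, 45 of the 50 members were well above background on all 4 arrays, beside 64.4% to 67.9% of all spots per array. On HFD against CD 0 members were higher and 0 lower, with differences from −0.60 to 0.60 log2. Over all genes 0.450% were higher and 1.70% lower. On HFD+PP, 1 member was higher than on HFD, beside 1.83% higher and 1.05% lower over all genes. This was Cd247, at −5.55 on HFD and −1.60 on HFD+PP. Its other probe stood at −5.83 and −4.72, so the 15.4-fold difference rests on 1 probe. On HFD+Ex, Cd28 was the single member higher (2.04-fold), beside 1.14% higher and 0.402% lower over all genes. Jchain stood at 5.50, 5.75, 6.35 and 6.15 on CD, HFD, HFD+PP and HFD+Ex, and Ms4a1 at 1.14, 1.37, 1.72 and 0.90; neither reached 2-fold in any comparison.

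In liver, 34 members were well above background on all 4 arrays and 5 on none, beside 55.0% to 60.4% of all spots per array. On HFD against CD 0 of the 42 measured members reached 2-fold, beside 3.52% higher and 1.29% lower over all genes. On HFD+PP, Cd79a was at least 2.02-fold higher than on HFD and the other 42 measured did not reach 2-fold, beside 0.585% higher and 1.52% lower. With quantile normalisation the split over all genes for HFD+PP moved from 90 higher and 234 lower to 67 and 323, and Cd79a no longer reached 2-fold. On HFD+Ex, 0 of the 37 measured members reached 2-fold, beside 1.42% higher and 1.64% lower. Cd3e lay between 1.59 and 1.77 on the 4 liver arrays, Gzma between −0.83 and −0.13, and Jchain between −1.40 and −0.78.

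**Figure D4:**
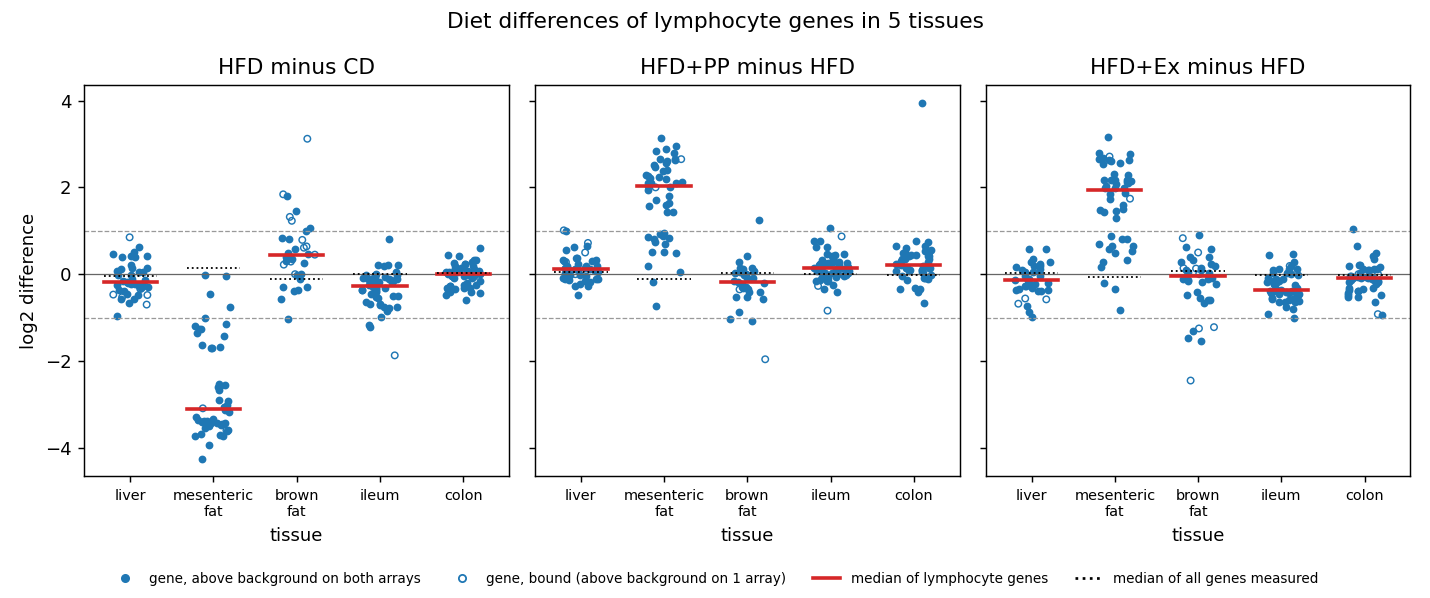
Log2 difference between 2 arrays (vertical axis) of each measured lymphocyte gene in 5 tissues (horizontal axis) for the 3 diet comparisons; filled points were above background on both arrays, open points are bounds, the red bar is the median of the lymphocyte genes, the dotted bar the median of all genes, and dashed lines mark 1 log2. Mesenteric fat stood apart in each panel, with medians of −3.12, 2.02 and 1.93.

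Across tissues the members had their highest levels in mesenteric fat. The mean over the 4 diets was highest there for 37 of the 50 members, in ileum for 8, in liver for 4 and in colon for 1, and it was lowest in brown fat for 35. All 12 B cell genes and all 10 T cell surface genes were highest in mesenteric fat, while 3 of the 4 plasma cell genes and 3 of the 6 cytotoxic and NK genes were highest in ileum. Among these, Nkg7 was highest in mesenteric fat and not in ileum on its dimmer probe. Highest and lowest tissues were not counted over all genes, so these counts do not set the members apart from other genes. Ms4a1 averaged 3.41 ± 1.61 (SD, n = 4) in mesenteric fat, 2.09 ± 0.38 in ileum, 1.28 ± 0.35 in colon, −2.35 ± 0.45 in liver and −3.84 ± 0.60 in brown fat. The mesenteric fat and ileum means differed by less than the SD over diets in mesenteric fat, where the HFD array was below every ileum array. Jchain averaged 6.88 ± 0.34 in ileum, 5.94 ± 0.38 in colon, 4.68 ± 1.11 in mesenteric fat, −1.09 ± 0.26 in liver and −3.46 ± 0.55 in brown fat. Zap70, Cd4, Cd247 and Xbp1 were the 4 members highest in liver. Zap70 averaged 4.26 ± 0.28 there and was high on its second probe too, whereas for Cd4 the probe used lay at 5.43 to 5.71 and the other at −3.91 to −3.47. The other Cd247 probe lay at −7.05 to −5.09 in liver and at −3.02 to −1.28 in mesenteric fat, so the place of Cd247 rests on 1 probe.

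The contrasts between tissues have 4 arrays a side and were tested with limma over all 20 arrays, with diet as a term, on 17389 genes. Within a tissue each array is a pool on another diet. The p-values measure 1 spread over all 20 pools after tissue and diet, which includes the interaction of the 2. It is not the spread of the 2 tissues compared. For Ms4a1 the SE was 0.55 log2 in both contrasts. Its SD was 0.38 in ileum, 0.35 in colon, 1.61 in mesenteric fat and 0.60 in brown fat. Between ileum and colon, 16 of the 50 members were higher in ileum and 0 lower at an adjusted p under 0.05, with a median of 0.74 log2 against −0.07 over all genes; 18.5% of all genes were higher and 25.5% lower. Ileum and colon arrays lay on separate slides, so slide and tissue cannot be told apart. The ranges over the 4 arrays overlapped for 21 members, and overlap was not counted over all genes. Without the HFD+Ex arrays 8 members were called, without HFD+PP 9 and without HFD 23, each higher in ileum. Calls over all genes were 7649 in the full fit, 5310 without HFD+Ex, 5919 without HFD+PP and 6724 without HFD. Jchain, Icos, Lat, Cd3d, Cd3g, Zap70 and Cd5 lost the call both without HFD+Ex and without HFD+PP. Their differences stayed near those of the full fit, for example 1.79 log2 for Cd3g and 1.68 for Icos without HFD+Ex. With only the 8 arrays of the 2 tissues, 36 members were higher in ileum and 1 lower, beside 9156 calls over all genes. Cd8a lost the call with normexp (limma, adjusted p = 0.054) and Icos with quantile normalisation (0.053).

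Cytotoxic granule genes led. Gzma averaged 3.45 ± 0.38 (SD, n = 4) in ileum and −1.46 ± 0.23 in colon, a 30.1-fold difference (4.91 ± 0.18 SE log2; limma, adjusted p = 6.2e-11). Gzmb averaged −0.65 ± 0.37 and −4.61 ± 0.33, a 15.6-fold difference (limma, adjusted p = 9.1e-06). In both, every ileum array lay above every colon array. Perforin (Prf1), Nkg7, Klrb1c and Klrd1 were not called, at −0.37, 0.26, 0.71 and 0.61 log2.
Of the 10 T cell receptor genes, 6 were higher in ileum: Cd8a by 1.88 ± 0.47 (SE) log2 (limma, adjusted p = 0.005), Cd3g by 1.73, Zap70 by 1.61, Lat by 1.47, Cd3d by 1.45 and Cd4 by 1.35. The Cd4 value rests on its bright probe, since the other lay at −4.59 to −4.10 in ileum and −4.63 to −4.27 in colon. Cd8b1, whose product marks conventional CD8 T cells, was at 0.58 ± 0.53 log2 (limma, adjusted p = 0.4). It was near background in both tissues, at means of −4.33 in ileum and −4.91 in colon, and well above it on 3 arrays of each. The difference between Cd8a and Cd8b1 was not tested. Icos, Cd6 and Cd5 were higher by 1.59, 1.54 and 1.48 log2, and the regulator Tbx21 by 1.11. Of the 12 B cell genes 1 was called, Cd72 (1.25 log2), and of the plasma cell genes Jchain (0.95) and Xbp1 (0.42). Madcam1 was 3.51-fold higher in ileum (limma, adjusted p = 0.0032), and Glycam1 was at −0.14 ± 0.73 log2. Foxp3, at −0.33 ± 0.38 log2, was not called (limma, adjusted p = 0.52).

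Between mesenteric fat and brown fat, 45 members were higher in mesenteric fat and 1 was lower, with a median of 4.53 log2 against −0.14 over all genes, of which 32.6% were higher and 41.1% lower. On the HFD+PP diet both fat arrays lay on 1 slide. There all 45 of the called members measured on both arrays had the sign of the fit, with a median of 4.88 log2. That pair is itself part of the fit that made the calls, so the shared sign is not a separate check. With slide as a block in the fit, 44 members were called, beside 10937 of all 17389 genes. Jchain averaged 4.68 ± 1.11 (SD, n = 4) in mesenteric fat and −3.46 ± 0.55 in brown fat (8.14 ± 0.32 SE log2; limma, adjusted p = 2.6e-11). Ms4a1, well above background on 3 of the 4 brown fat arrays, was 152-fold higher in mesenteric fat. Cd3d was well above background on 1 brown fat array, so its 94.4-fold difference is taken against a group mostly at background. In 12 members not well above background on any brown fat array the difference is a bound: Mzb1 was at least 80.7-fold higher, Tnfrsf13c at least 74.3-fold, Tcf7 at least 27.8-fold, Cd8b1 at least 27.4-fold, Cd79a at least 12.8-fold, Cd8a at least 10.3-fold and Foxp3 at least 4.07-fold. Cd4 was the member lower in mesenteric fat (−0.72 ± 0.21 SE log2; limma, adjusted p = 0.006), and this turned to 0.32 (adjusted p = 0.25) with the median of its probes. With quantile normalisation, bright probes or the authors' values Cd4 kept its sign and lost the call (limma, adjusted p = 0.13, 0.15 and 0.3). Cd22, Cd247, Prf1 and Nkg7 were not called. The dimmer Nkg7 probe lay at −0.47 to 2.14 in mesenteric fat and at −4.66 to −3.29 in brown fat, so for Nkg7 this rests on the probe used. The ranges overlapped for 8 members, and overlap was not counted over all genes. The HFD array of mesenteric fat was the lowest of its tissue for most of the members, so the contrast includes the diet difference described above.

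**Figure D5:**
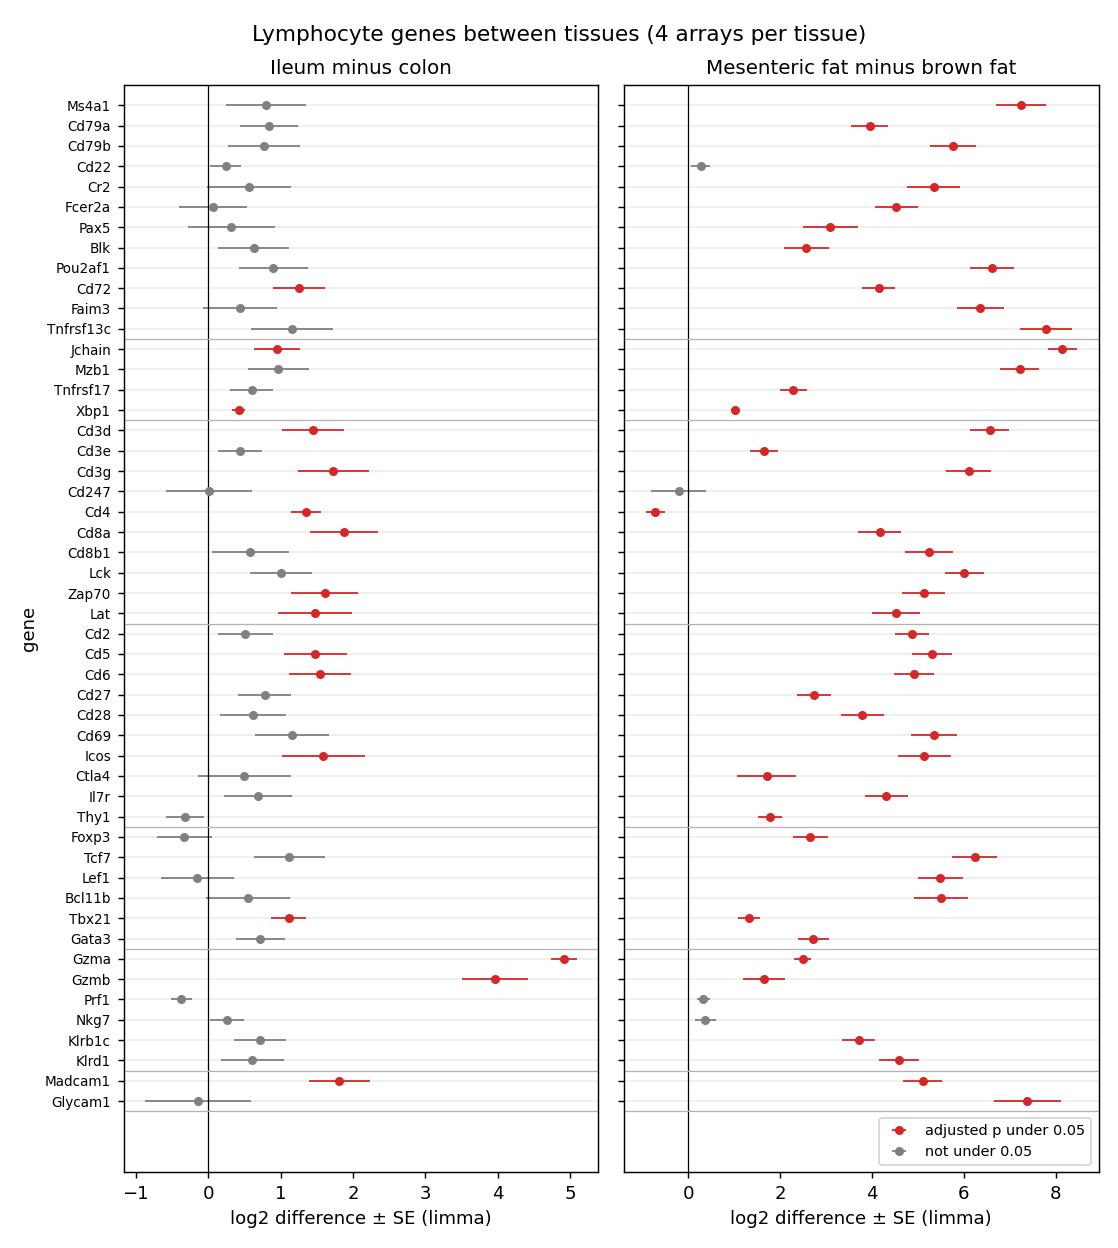
Log2 difference ± SE (horizontal axis, limma, 4 arrays per tissue) of each of the 50 lymphocyte genes (vertical axis) for ileum minus colon (left) and mesenteric fat minus brown fat (right); red points passed an adjusted p of 0.05. On the left Gzma at 4.91 and Gzmb at 3.96 lie far from the other genes; on the right 45 genes are above 0 and Cd4 is below it.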

How the data were processed

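Single-colour Agilent arrays of 20 pools were scanned and extracted by the authors with Agilent Feature Extraction 11.5.1.1 (protocol GE1_1105_Oct12, design build mm9), per the file headers. The deposited intensity is the processed signal of each spot, background-subtracted and detrended within the array, with no scaling between arrays, per the file headers. The authors' deposited value table held the same intensity times 1 factor per array. RNA was isolated with a column kit and labelled with Cy3 as amplified cRNA, per the labels' protocols.

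Control spots and outlier spots (117 to 206 an array) were left out, spots of a probe were averaged, and the log2 intensity minus the array's 75th percentile was taken. Of 55681 probes, 28026 were named through RefSeq accessions; 221 of 226 entries of the marker lists were on the array. The brightest probe stood for a gene. Tissue contrasts used limma 3.58.1 (R 4.3.3) with tissue and diet as terms, genes well above background on at least 4 arrays, and Benjamini-Hochberg adjustment; the procedure was tested on simulated data. Alternatives were normexp (offset 50, on the median signal because the mean signal was not used here), quantile normalization, scaling to bright probes, the authors' values, other filters on dim probes, the median over probes, slide as a block, no diet term, fewer tissues and leaving out each diet. Precision is limited by the number of arrays.

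The members and all lists were chosen with earlier results of these data known. Values on every array are given for the 3 members per role with the largest difference and for 13 members whatever their values; of other lists, up to 3 genes per direction are named (some genes the rule selects are not reported here), and genes named beyond these were picked after their values were seen.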

Additional observations from a re-analysis of the deposited data

Results flagged for a closer look

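For 9 of the 50 members, differences passed 2-fold in opposite directions in 2 tissues under the same diet contrast. This was not counted over all genes, so it does not set the members apart. With 46 of the 50 lower in mesenteric fat on HFD, nearly any member higher there in another tissue is listed. The difference between the tissues was not tested, since each side is 1 pair of arrays. On HFD against CD, brown fat was higher and mesenteric fat lower for Cd79b (1.06 and −3.41 log2), Cd72 (1.80 and −1.69), Lat (1.23, a bound, and −3.28), Cd28 (1.32, a bound, and −2.89), Gata3 (1.46 and −1.62) and Gzmb (1.84, a bound, and −1.20). On HFD+Ex against HFD, mesenteric fat was higher and brown fat lower for Ms4a1 (2.78 and −1.46) and Klrd1 (1.43 and −1.25, a bound), and mesenteric fat was higher and ileum lower for Blk (2.18 and −1.01).

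Among 249 sets of the 4 arrays of 1 tissue, 8 had 1 array far from the other 3. Chance gives about 1 in 20, so these are fewer than chance gives. The arrays were liver HFD+Ex for Faim3 (−2.44), liver HFD for Nkg7 (2.09), brown fat CD for Cd79a (−4.30), brown fat HFD for Gzmb (−2.65), ileum HFD+Ex for Cr2 (1.16) and Faim3 (1.54), colon HFD+PP for Pou2af1 (1.57) and colon CD for Cd3d (−0.93). Cd79a was not well above background on any brown fat array, so its value there is a background reading. The 4 arrays of a tissue are on 4 diets, so an array that stands apart is also a diet that does.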

How the results depend on the processing

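The counts in mesenteric fat (46, 35 and 35 members) and the 2 other colon counts stayed within 1.5 times under each alternative run, with medians from −3.25 to −2.54, 1.53 to 2.14 and 1.37 to 2.02 log2. In liver, the count for HFD against CD went from 0 to 1 (quantile) and 5 (no filter on dim probes). For HFD+PP it went from 1 to 0 (normexp, quantile, bright probes, the authors' values, above background on both arrays) and 3 (no filter), and for HFD+Ex from 0 to 1 (quantile, the authors' values) and 4 (no filter). In brown fat, the count for HFD against CD went from 8 to 2 (normexp), 4 (both arrays) and 13 (no filter), for HFD+PP from 4 to 0 (normexp) and 10 (no filter), and for HFD+Ex from 6 to 0 (normexp), 3 (both arrays) and 11 (no filter). In ileum, the count for HFD against CD went from 3 to 0 (normexp), for HFD+PP from 1 to 0 (normexp) and 2 (no filter), and for HFD+Ex from 1 to 0 (normexp, bright probes, the authors' values) and 2 (median over probes). In colon, the count for HFD+Ex went from 1 to 0 (normexp) and 2 (no filter). Apart from the filters, the causes were not tested. Ileum against colon went from 16 to 37 with only the 8 arrays of the 2 tissues, and ran from 8 to 23 when 1 diet was left out. Over all genes the calls went from 7649 to 9156 with the 8 arrays, and ran from 5310 to 7539 when 1 diet was left out. The member count for mesenteric against brown fat stayed between 43 and 49. In the contrast of the 2 fats Ctla4 (−0.13) and Gzmb (−0.05) with normexp and Cd4 (0.32) with the median over probes changed sign. Their adjusted p in limma was 0.41, 0.76 and 0.25. Of the single-gene diet values, 934 kept their call and 44 lost it, and 0 changed sign. Calls resting on a bound could not be compared where both arrays had to be above background, and are in neither count. Under that filter 126 values kept their call, beside 142 without a filter on dim probes. Of the tissue values, 812 kept their call and 37 lost it. Scaling to bright probes moved the median of all genes for HFD against CD in mesenteric fat from 0.14 to 0.01 log2. The tissue fit pairs arrays by diet, with diet as a term; without that term 16 and 46 members were called, as with it. The diet comparisons have 1 array a side and no pairing. Dim genes in brown fat and liver have only bounds, and the number of arrays limits every diet value.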

Other observations

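In mesenteric fat on HFD against CD, 0 of 7 mesothelium genes and 0 of 5 measured erythroid genes reached 2-fold. Of 6 lymphatic vessel genes, 1 was lower (Prox1 by 1.24 log2), and Lyve1 was at −0.58. Of 7 genes of lymphocyte survival signals, 2 were lower, the receptor chains Il2rb and Il2rg at 6.29-fold and 4.70-fold. The factor genes Tnfsf13b (BAFF), Il7 and Il15 stood at −0.10, −0.42 and 0.04 log2. Of the Paneth cell genes 1 of 4 was higher and 1 lower, of the neutrophil and mast cell genes 3 of 7 measured were higher and 1 lower, of the follicle epithelium genes 3 of 5 measured were lower and 1 higher, of the 6 liver genes 1 was higher and 2 lower, of 5 measured brown fat genes 1 was lower, and of 3 measured colon genes 1 was lower. Of 4 measured ileum genes, 4 were higher on HFD (median 2.96 log2) and 4 were lower on HFD+Ex than on HFD (median −3.69 log2), as the intestinal epithelium genes were.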
